A study of Mus musculus with 18 samples.

Results

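Collagens are the main fibres and sheets of the extracellular matrix, and the genes described here encode their chains. All probe sets that named a single gene whose symbol had the form of a collagen chain (Col, a type number, a, a chain number) were taken, with the probe set of the highest mean over 18 arrays where a gene had several. This gave 44 chain genes among 19912 genes. They comprised 11 fibrillar chains, 6 chains of type IV (basement membrane), 6 of type VI, 9 fibril-associated chains with interrupted helices (FACIT) and 3 short-chain network chains (types VIII and X). The others were 2 multiplexins (types XV and XVIII), 4 transmembrane chains and 3 remaining chains (types VII, XXVI and XXVIII). The study profiled cells of CD1 mice on Affymetrix mouse Gene 1.0 ST arrays in 6 groups of 3 arrays. The groups were neonatal cardiac fibroblasts (CF), neonatal cardiomyocytes (CM), GFP+ induced cardiomyocyte-like cells (iCMs) at 2 and at 4 weeks, and GFP- cells in which reprogramming had failed, at the same 2 time points. The labels name neither the reprogramming factors nor the promoter that drives GFP, and give no age other than neonatal. Each group's 3 arrays are named as biological replicates in the design text. Nothing in the labels ties them to separate cultures or animals, and the p-values then rest on the spread among arrays alone, which may be technical.

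Collagen chains wind around each other into a triple helix inside the endoplasmic reticulum, where prolines and lysines are hydroxylated. After secretion the ends of the fibrillar chains are cut off, and lysyl oxidases cross-link the fibrils. In the heart, fibroblasts make most of the type I and type III collagen that carries load between muscle bundles. Type IV collagen forms the sheet-like network of the basement membrane that surrounds each cardiomyocyte and underlies the endothelium. FACIT chains such as Col12a1 and Col14a1 lie on the surface of fibrils, and type VIII collagen forms hexagonal networks.

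Values are RMA log2 intensities, so a difference of 1 is 2-fold. Levels of different probe sets were summed over marker lists and subtracted between partner chains within arrays. Otherwise they were set only against a background limit and, for Col4a3, Col4a4, Col4a6 and Col10a1, against the range of the chains called in no comparison. Array medians ran from 7.32 to 7.44 and arrays of a group correlated at r = 0.9897 to 0.9959 across genes. One model per gene was fitted with limma over all 19912 genes. A gene was called when its Benjamini-Hochberg adjusted p over all genes was under 0.05, and errors of differences are standard errors (SE, n = 3 against 3). The background limit was 6.38 log2 (the smallest 25th percentile over genes of the 18 arrays), and 0 of the chains' group means fell under it. Most genes pass such a limit, so it does not show that a chain was expressed. Cardiomyocyte markers (10 of 10 measured) summed to 73.3 to 74.4 log2 in fibroblasts, 112.4 to 116.5 and 119.5 to 120.8 in 2-week and 4-week iCMs, and 130.3 to 130.7 in cardiomyocytes. In GFP- cells they summed to 82.1 to 85.5 at 2 weeks and 81.7 to 83.5 at 4 weeks. Of these 10 markers, 7 and 6 were called higher in GFP- cells than in fibroblasts (all genes: 13.8% and 5.79%) and 0 lower. The 10 macrophage markers, none at background in fibroblasts, summed to 116.4 to 118.7 there and to 117.9 to 120.6 over the GFP- arrays. In iCMs their sum was 89.1 to 98.4, and in cardiomyocytes, with 4 of the 10 at background, 63.9 to 65.4. The 10 fibroblast markers other than collagens summed to 109.2 to 113.0 in fibroblasts, 88.3 to 95.5 in iCMs, 92.7 to 99.0 in GFP- cells and 101.1 to 104.1 in cardiomyocytes. The arrays measure mixed RNA, in which fewer cells of a type and less RNA per cell cannot be told apart, and the part of these markers in the differences below was not tested.

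Of the 44 chains, 25 were called in at least 1 of 12 comparisons and 10 of those by at least 2-fold. Chains of the interstitial fibrils (Col1a1, Col1a2, Col3a1, Col5a2), the type VIII chain Col8a1 and the fibril-associated Col14a1 were lower in every other group than in fibroblasts. Type IV chains and Col12a1 were higher in iCMs than in GFP- cells of the same week. Against fibroblasts, 2-week iCMs had 9 chains lower (all genes: 15.8%) and 5 higher (17.4%), and 4-week iCMs 12 lower (15.2%) and 5 higher (14.3%). GFP- cells had 15 lower at 2 weeks (8.93%) and 17 lower at 4 weeks (5.70%), with 0 of 44 higher at either time (13.8% and 5.79%). At an unadjusted p under 0.05 the number higher in GFP- cells was 1 at 2 weeks and 0 at 4 weeks, and with array weights in limma it was 4 at 2 weeks. Cardiomyocytes had 11 lower (21.5%) and 4 higher (19.6%), or 10 and 6 after quantile normalization. The median of all 44 chains lay between -0.15 and 0.01 in these comparisons, beside -0.01 to 0.05 for all genes. In both directions together the calls against fibroblasts were 14 and 17 chains in 2-week and 4-week iCMs (33.3% and 29.5% of all genes), 15 and 17 in GFP- cells (22.7% and 11.5%) and 15 in cardiomyocytes (41.0%). Chains called with at least 2-fold change were 5 and 7 in iCMs (7.23% and 7.74% of all genes), 6 and 6 in GFP- cells (2.37% and 2.02%) and 6 in cardiomyocytes (11.8%). These 5 comparisons share the 3 fibroblast arrays.

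**Figure D1:**
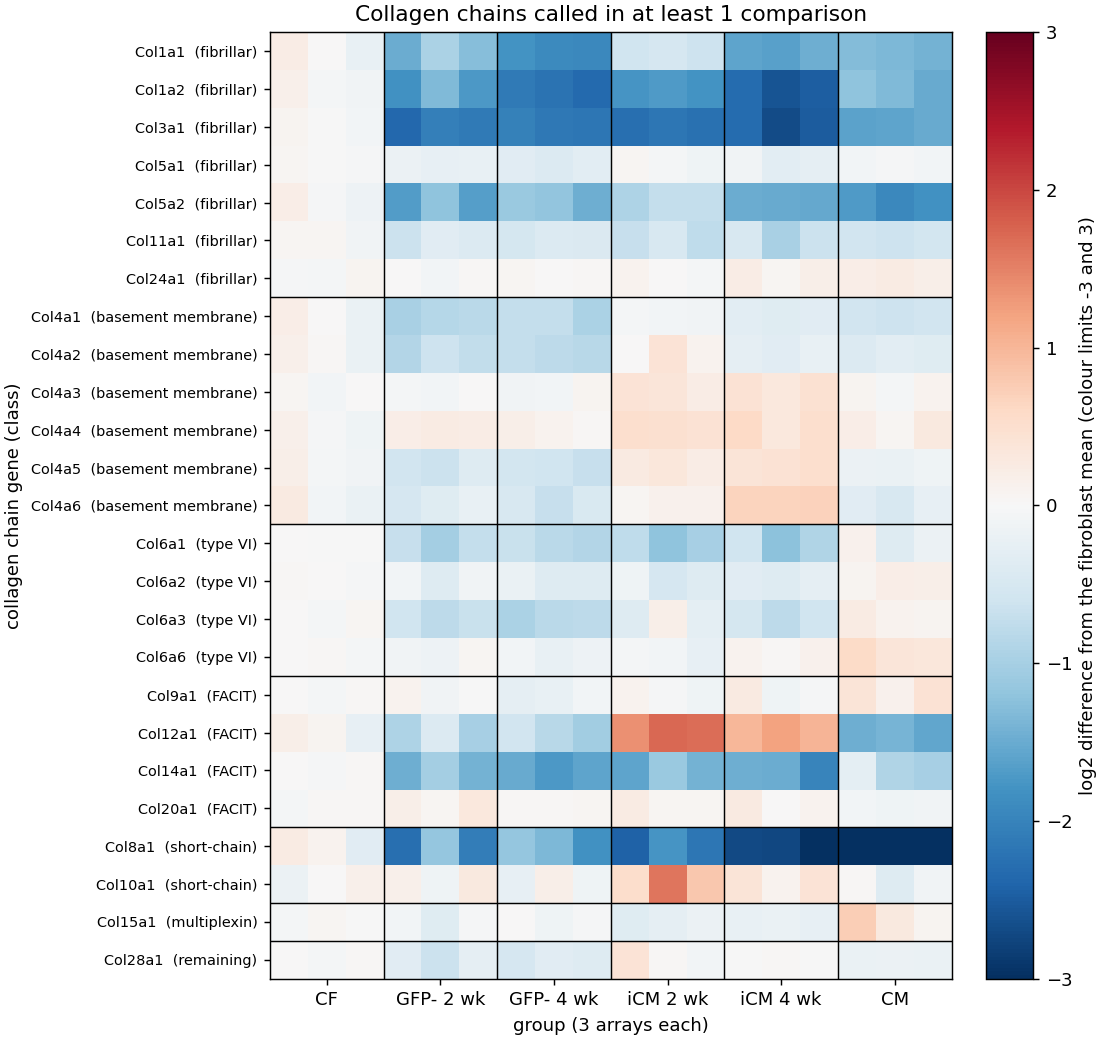
Each row is one of the 25 chains called in at least 1 comparison, ordered by class, and each column an array; colour gives the log2 difference from the fibroblast mean, blue lower and red higher. Col1a2, Col3a1 and Col8a1 are blue in all 15 arrays outside the fibroblasts, and Col12a1 is red in the 6 iCM arrays and blue in the GFP- and cardiomyocyte arrays.

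Fibrillar chains build the banded fibrils of interstitial matrix. Of the 11, 5 were lower than in fibroblasts in 2-week iCMs, 2-week GFP- cells and cardiomyocytes (all genes: 15.8%, 8.93% and 21.5%). In 4-week iCMs and 4-week GFP- cells 6 were lower (all genes: 15.2% and 5.70%). The called chains were Col1a1, Col1a2, Col3a1, Col5a2 and Col11a1, joined at 4 weeks by Col5a1, and 1 chain, Col24a1, was higher in cardiomyocytes (0.20 ± 0.08, limma adjusted p = 0.0427). Class medians were -0.11 and -0.23 in 2-week and 4-week iCMs, -0.22 and -0.35 in GFP- cells and -0.06 in cardiomyocytes, where quantile normalization gave 0.05. The 2-week iCM value was -0.21 without iCM replicate 1, -0.05 without replicate 2 and -0.20 with array weights, and that of 2-week GFP- cells was -0.29 with cyclic loess. Over types I, II, III, V and XI alone the medians were -0.57 and -0.70 in iCMs, -0.46 and -0.46 in GFP- cells and -0.58 in cardiomyocytes. The bases just before the RefSeq start sites (GRCm38.p6) of Col1a2 (chr6:4505468-4505617, plus strand) and Col3a1 (chr1:45311388-45311537, plus strand), the fibrillar chains with the lowest values against fibroblasts in iCMs, are shown 5′ to 3′ with a CCAAT box and a TATAAA box in capitals.
Col1a2: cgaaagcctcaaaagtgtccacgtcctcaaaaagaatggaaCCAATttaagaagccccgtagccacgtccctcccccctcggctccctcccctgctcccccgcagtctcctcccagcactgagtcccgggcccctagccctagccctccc
Col3a1: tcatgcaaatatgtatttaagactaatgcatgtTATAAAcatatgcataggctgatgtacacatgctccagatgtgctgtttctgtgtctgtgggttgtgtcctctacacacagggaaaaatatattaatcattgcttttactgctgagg
The Col1a2 window held the CCAAT letters and no TATAAA, and the Col3a1 window the reverse.

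Col1a2 encodes the alpha-2 chain of type I collagen, the most abundant collagen of the heart. Its fibroblast arrays read 10.56, 10.35 and 10.30 log2. The 2-week iCM arrays read 8.64, 8.71 and 8.61, and the 4-week iCM arrays 8.10, 7.81 and 7.94. GFP- arrays read 8.59, 9.07 and 8.69 at 2 weeks and 8.28, 8.18 and 8.08 at 4 weeks, and cardiomyocytes 9.19, 9.08 and 8.90. Every fibroblast array was above every other array, and the 4-week iCMs had the lowest mean. The difference from fibroblasts was -1.75 ± 0.12 in 2-week iCMs (SE, 3.37-fold lower) and -2.46 ± 0.12 in 4-week iCMs (5.49-fold lower, limma adjusted p = 2.10e-12). In GFP- cells it was -1.62 ± 0.12 and -2.22 ± 0.12, and in cardiomyocytes -1.35 ± 0.12. Between iCMs and GFP- cells of the same week the arrays overlapped, and neither difference was called (-0.13 ± 0.12, 95% interval -0.38 to 0.11, and -0.23 ± 0.12, -0.48 to 0.01). From 2 to 4 weeks it fell in iCMs by 0.70 ± 0.12 and in GFP- cells by 0.60 ± 0.12.

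Col1a1 encodes the partner chain of type I collagen. Fibroblast arrays read 10.68, 10.48 and 10.24, 2-week iCMs 9.87, 9.97 and 9.85 and 4-week iCMs 8.88, 8.83 and 8.99. GFP- arrays read 8.97, 9.52 and 9.19 at 2 weeks and 8.68, 8.56 and 8.52 at 4 weeks, and cardiomyocytes 9.17, 9.11 and 9.05. The 2-week iCMs were the nearest group to fibroblasts, without overlap, and stood above all 3 GFP- arrays of that week. They differed from fibroblasts by -0.57 ± 0.12, and 4-week iCMs by -1.57 ± 0.12 (2.96-fold lower, limma adjusted p = 2.29e-09). GFP- cells differed by -1.24 ± 0.12 and -1.88 ± 0.12, and cardiomyocytes by -1.35 ± 0.12. Against GFP- cells, iCMs were higher at 2 weeks (0.67 ± 0.12, limma adjusted p = 1.40e-04). At 4 weeks the difference of 0.31 ± 0.12 missed the threshold (limma adjusted p = 0.0527), which 6 of the alternative settings passed (values 0.31 to 0.40).

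In iCMs the type I chains differed in the size of their change by more than the spread between arrays. In 2-week iCMs the change from fibroblasts was -0.57 for Col1a1 and -1.75 for Col1a2, and the difference between these changes was 1.19 ± 0.06 (SE over arrays). It was 0.89 ± 0.11 in 4-week iCMs, 0.38 ± 0.07 and 0.35 ± 0.06 in 2-week and 4-week GFP- cells, and -0.00 ± 0.08 in cardiomyocytes. Within arrays, Col1a1 minus Col1a2 was 1.23 to 1.26 in 2-week iCMs, 0.78 to 1.05 in 4-week iCMs, 0.38 to 0.50 in GFP- cells and -0.07 to 0.12 in fibroblasts, so these groups did not overlap. Such a shift shows unequal change, not which probe set moved. An exact 2-sided permutation test at 3 against 3 cannot go below p = 0.1, the value reached in each of these comparisons other than that of cardiomyocytes, and 0.183 after adjustment over 77 such tests (7 pairs of partner chains, a family added after the data had been seen).

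Col3a1, the chain of type III collagen, which forms thin fibrils beside type I, had one of the largest decreases of a fibrillar chain. Fibroblast arrays read 10.69, 10.60 and 10.51, 2-week iCMs 8.34, 8.42 and 8.37 and 4-week iCMs 8.29, 7.91 and 8.10. GFP- arrays read 8.24, 8.56 and 8.47 at 2 weeks and 8.56, 8.46 and 8.43 at 4 weeks, and cardiomyocytes 8.995, 9.01 and 9.09. Fibroblasts stood apart from all others, and cardiomyocytes, the next group, were above all iCM and GFP- arrays. In iCMs the difference from fibroblasts was -2.22 at 2 weeks and -2.50 ± 0.10 at 4 weeks (limma adjusted p = 1.25e-13). In GFP- cells it was -2.18 ± 0.10 and -2.12 ± 0.10. The iCMs were lower than GFP- cells at 4 weeks (-0.39 ± 0.10, limma adjusted p = 0.00417), while at 2 weeks the difference was -0.05 ± 0.10 (95% interval -0.25 to 0.16).

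Col5a2 encodes a chain of type V collagen, which sits in the core of type I fibrils and limits their diameter. Its gene lies next to Col3a1. Fibroblast arrays read 9.51, 9.28 and 9.17, 2-week iCMs 8.39, 8.60 and 8.60 and 4-week iCMs 7.83, 7.82 and 7.79. GFP- arrays read 7.65, 8.12 and 7.66 at 2 weeks and 8.20, 8.13 and 7.86 at 4 weeks, and cardiomyocytes 7.62, 7.38 and 7.51. The 2-week iCMs lay between fibroblasts and every remaining group, and by 4 weeks the iCMs had dropped to the level of the 2-week GFP- cells. The fall within iCMs was 0.72 ± 0.13 from 2 to 4 weeks, while GFP- cells differed by 0.26 ± 0.13, which was not called. Without replicate 2 of the 2-week GFP- cells this rise was 0.41 and with array weights also 0.41, and both were called (limma adjusted p = 0.0198 and 0.00435). The difference between these time changes was -0.98 ± 0.18 (limma interaction, adjusted p = 0.00267). The partner chain Col5a1 ranged over group means from 7.91 to 8.26 and differed from fibroblasts by -0.23 ± 0.08 in 4-week iCMs and -0.35 ± 0.08 in 4-week GFP- cells. In cardiomyocytes Col5a1 differed by -0.06 ± 0.08 and Col5a2 by -1.82 ± 0.13, a difference between the chains of 1.76 ± 0.11. Col11a1, a related minor chain, was lower than in fibroblasts in all 5 other groups (-0.46 to -0.70).

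**Figure D2:**
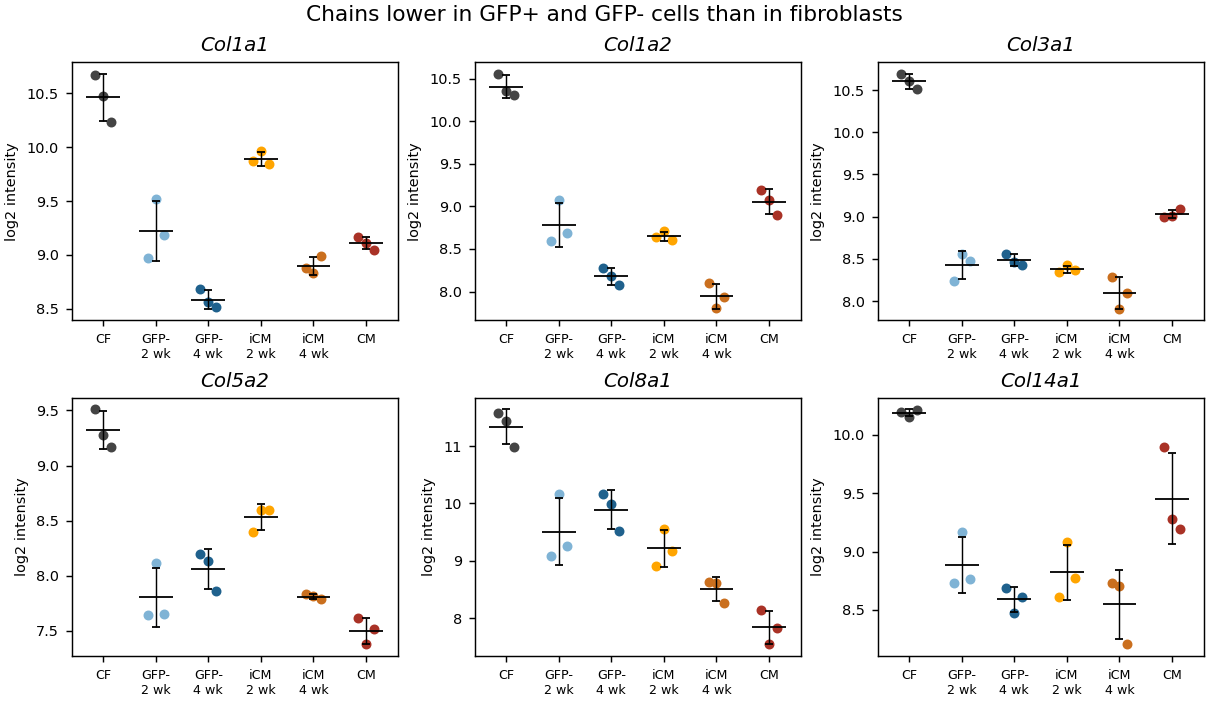
Log2 intensity of 6 chains in each of 18 arrays (points), with the group mean (line) and SD (bar), n = 3 per group. Fibroblasts are highest for all 6, and Col1a1 and Col5a2 of 2-week iCMs stand above the other groups outside fibroblasts.

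Among the short-chain network collagens, Col8a1 had the widest range of any chain. Its product is deposited in vessel walls and under endothelia. The window before its start site (chr16:57754738-57754887, minus strand, RefSeq, GRCm38.p6), shown as that of the chain with the largest difference, held the GC box in 3 copies on the opposite strand (CCGCCC, in capitals).
Col8a1: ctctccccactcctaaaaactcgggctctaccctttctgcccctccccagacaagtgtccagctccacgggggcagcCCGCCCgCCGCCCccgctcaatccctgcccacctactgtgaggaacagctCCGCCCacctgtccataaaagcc
Fibroblast arrays read 11.58, 11.43 and 10.99, 2-week iCMs 8.92, 9.56 and 9.17 and 4-week iCMs 8.63, 8.61 and 8.26. GFP- arrays read 9.08, 10.17 and 9.26 at 2 weeks and 10.17, 9.995 and 9.51 at 4 weeks, and cardiomyocytes 8.14, 7.55 and 7.83. No array of another group reached the fibroblasts, and the cardiomyocyte arrays were the lowest. Cardiomyocytes differed from fibroblasts by -3.50 ± 0.24 (11.3-fold lower, limma adjusted p = 2.43e-10). The iCMs differed by -2.12 ± 0.24 at 2 weeks and -2.83 ± 0.24 at 4 weeks, and GFP- cells by -1.83 ± 0.24 and -1.44 ± 0.24. At 4 weeks iCMs were 2.62-fold lower than GFP- cells (-1.39 ± 0.24), whereas at 2 weeks the arrays overlapped (-0.29 ± 0.24). The time change of iCMs minus that of GFP- cells was -1.10 ± 0.34 and was not called (limma adjusted p = 0.0849). It passed when GFP- replicate 2 of week 2 was left out (-1.43, limma adjusted p = 0.00585), when GFP- replicate 3 of week 4 was left out (-1.29, 0.042) and with array weights (-1.61). Replicate 2 had the highest Col8a1 reading of the 2-week GFP- cells.

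Col10a1, known as the collagen of hypertrophic cartilage, was raised in 2-week iCMs. Its arrays there read 7.89, 8.98 and 8.18 log2, against 7.19, 7.39 and 7.53 in fibroblasts. The 4-week iCMs read 7.76, 7.47 and 7.77, and cardiomyocytes 7.41, 6.98 and 7.25. GFP- arrays read 7.52, 7.24 and 7.66 at 2 weeks and 7.12, 7.55 and 7.23 at 4 weeks. All 3 arrays of 2-week iCMs were above every other array, and 1 of them, replicate 2, lay well above its 2 fellows. The difference was 0.98 ± 0.20 from fibroblasts (limma adjusted p = 6.29e-04), 0.88 ± 0.20 from GFP- cells and 1.14 ± 0.20 from cardiomyocytes. By 4 weeks iCMs had fallen by 0.68 ± 0.20 (limma adjusted p = 0.0331), a call lost without replicate 2 of the 2-week iCMs (-0.37, limma adjusted p = 0.174) or without any 1 of the 4-week arrays (-0.59 to -0.74, 0.0565 to 0.139), or when fitted on these 2 groups alone (-0.68, 0.104). Of 7 measured cartilage and bone markers other than collagens, 3 were at background in every group and 0 were called between 2-week iCMs and either fibroblasts or GFP- cells. Group means of Col10a1 ran from 7.21 to 8.35, within the range of the chains called in no comparison (6.497 to 8.83), and whether it was expressed was not tested. The third chain of the class, Col8a2, was called in no comparison.

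Col12a1 was higher in iCMs than in every other group. It encodes a FACIT collagen that coats type I fibrils and is known from tendon, muscle and matrix under tension. The iCM arrays read 10.72, 11.07 and 11.02 at 2 weeks and 10.34, 10.55 and 10.36 at 4 weeks. Fibroblast arrays read 9.51, 9.41 and 9.10. GFP- arrays read 8.40, 8.93 and 8.34 at 2 weeks and 8.76, 8.51 and 8.30 at 4 weeks, and cardiomyocytes 7.88, 7.95 and 7.79. The iCMs, fibroblasts, GFP- cells and cardiomyocytes formed 4 levels in that order with no overlap. Against fibroblasts Col12a1 was 3.03-fold higher in 2-week iCMs (1.60 ± 0.15, limma adjusted p = 4.59e-08) and 2.11-fold higher in 4-week iCMs (1.08 ± 0.15). It was lower in GFP- cells (-0.78 ± 0.15 and -0.82 ± 0.15) and in cardiomyocytes (-1.47 ± 0.15). The iCMs exceeded GFP- cells by 2.38 ± 0.15 at 2 weeks and 1.89 ± 0.15 at 4 weeks, the largest such differences among the 44 chains. They exceeded cardiomyocytes by 3.07 ± 0.15 (8.37-fold) and 2.54 ± 0.15. The decrease from 2 to 4 weeks in iCMs, -0.52 ± 0.15, did not pass without iCM replicate 2 or 3 of week 2, or replicate 1 or 3 of week 4 (limma adjusted p = 0.088 to 0.103).

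Col14a1, a FACIT chain of similar build, was lower than in fibroblasts in all 5 other groups. Fibroblast arrays read 10.20, 10.16 and 10.22, 2-week iCMs 8.61, 9.08 and 8.77 and 4-week iCMs 8.73, 8.71 and 8.21. GFP- arrays read 8.74, 9.17 and 8.77 at 2 weeks and 8.69, 8.48 and 8.61 at 4 weeks, and cardiomyocytes 9.90, 9.28 and 9.19. All fibroblast arrays were above all others, and the iCM and GFP- arrays overlapped at both times. The difference from fibroblasts was -1.37 ± 0.17 and -1.64 ± 0.17 in iCMs, -1.30 ± 0.17 and -1.60 ± 0.17 in GFP- cells and -0.73 ± 0.17 in cardiomyocytes. Between iCMs and GFP- cells it was -0.07 ± 0.17 at 2 weeks (95% interval -0.43 to 0.29). Of the 7 other FACIT chains, Col9a1 was higher in cardiomyocytes than in fibroblasts (0.31 ± 0.11) and Col20a1 was higher in iCMs than in cardiomyocytes (0.23 ± 0.09 and 0.24 ± 0.09), and 5 were called nowhere.

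Type IV collagen, as a class, was higher in iCMs than in GFP- cells. All 6 chains were higher in iCMs at 2 weeks and all 6 at 4 weeks, beside 16.2% and 17.2% of all genes called higher, with medians of 0.63 and 0.48 log2. All 3 iCM arrays exceeded all 3 GFP- arrays for each of the 6 chains at both times, and 6 of 6 were called higher after quantile or cyclic loess normalization too. The iCMs were also higher than cardiomyocytes for 6 chains at 2 weeks and 5 at 4 weeks (all genes: 22.7% and 19.0%). The medians were 0.46 and 0.32, and Col4a2 was the exception at 4 weeks (0.09 ± 0.11). Against fibroblasts, 3 were higher in 2-week iCMs (all genes: 17.4%), and 4 were higher and 1 lower in 4-week iCMs (14.3% and 15.2%). In GFP- cells 4 of 6 were lower than in fibroblasts at both times (all genes: 8.93% and 5.70%), with medians of -0.45 and -0.58. In cardiomyocytes 3 of 6 were lower (21.5%). For comparison, 2 of 11 fibrillar chains at 2 weeks and 0 of 11 at 4 weeks were higher in iCMs than in GFP- cells. Markers of other cells that carry basement membranes differed too. The endothelial sum (10 of 10 measured) was 73.8 to 75.1 in iCMs, 78.0 to 87.4 in GFP- cells and 69.2 to 70.3 in fibroblasts. The mesothelial and epicardial sum (7 of 7) was 63.8 to 68.2 in iCMs, 55.8 to 61.3 in GFP- cells and 56.9 to 59.5 in fibroblasts. The smooth muscle sum (10 of 10) was 83.1 to 85.6 in iCMs and 76.1 to 79.7 in GFP- cells, and in fibroblasts (83.2 to 86.1) it overlapped that of iCMs. Their part in the type IV difference was not tested.

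**Figure D3:**
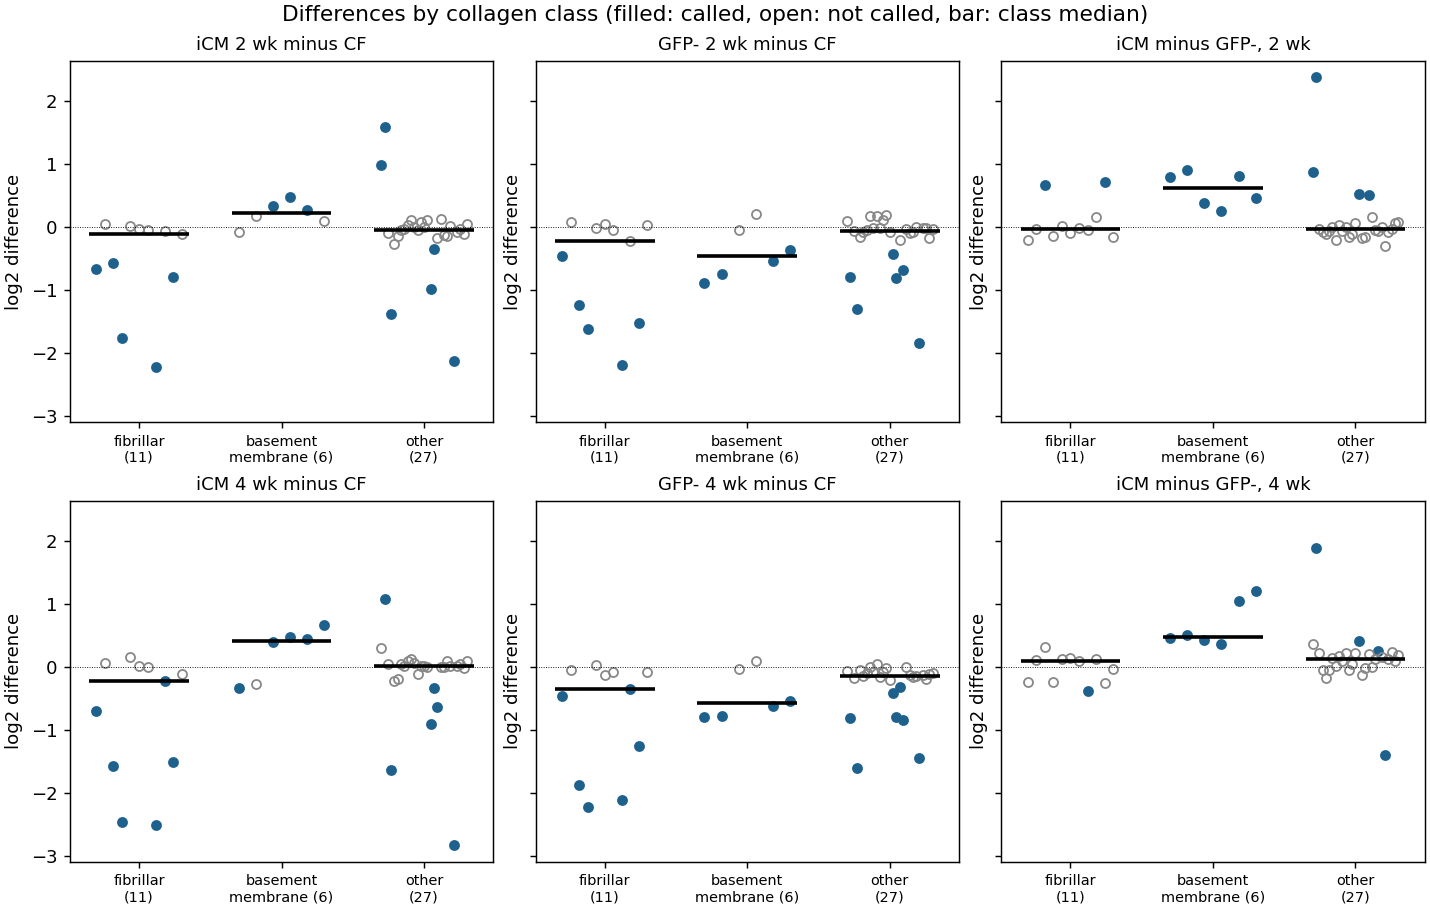
Log2 differences of all 44 chains in 6 comparisons, by class (members in parentheses); filled points were called by limma, open points were not, and bars mark class medians. Type IV points lie above 0 in both panels of iCMs against GFP- cells (medians 0.63 and 0.48), while the called fibrillar points in the 4 panels against fibroblasts lie below 0.

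Col4a5 and Col4a6 encode partner chains of the basement membrane network, and their genes stand head to head on chromosome X with 1343 bases between the RefSeq start sites. The windows before the starts of Col4a5 (chrX:141475269-141475418, plus strand) and Col4a6 (chrX:141474077-141474226, minus strand) come from this shared interval and each held 1 GC box, in capitals (GGGCGG, or CCGCCC on the other strand; GRCm38.p6).
Col4a5: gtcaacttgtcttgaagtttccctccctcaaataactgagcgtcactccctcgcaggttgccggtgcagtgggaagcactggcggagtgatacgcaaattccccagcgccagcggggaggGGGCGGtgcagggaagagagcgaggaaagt
Col4a6: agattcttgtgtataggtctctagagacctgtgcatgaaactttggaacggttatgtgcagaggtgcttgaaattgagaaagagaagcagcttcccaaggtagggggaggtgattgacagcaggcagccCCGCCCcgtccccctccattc
For Col4a6, fibroblast arrays read 7.91, 7.55 and 7.45, 2-week iCMs 7.69, 7.77 and 7.77 and 4-week iCMs 8.31, 8.30 and 8.33. GFP- arrays read 7.13, 7.27 and 7.42 at 2 weeks and 7.15, 6.95 and 7.18 at 4 weeks, and cardiomyocytes 7.30, 7.15 and 7.39. The 4-week iCMs were above all other arrays, and the 2-week iCMs overlapped fibroblasts but not GFP- cells. Col4a6 rose in iCMs from 2 to 4 weeks by 0.57 ± 0.11, and the change exceeded that of GFP- cells by 0.75 ± 0.16 (limma interaction, adjusted p = 0.00817). It was the only chain of the 44 called higher at 4 than at 2 weeks in iCMs, where quantile or cyclic loess normalization called 2 and array weights 6. At 4 weeks iCMs differed from GFP- cells by 1.21 ± 0.11 (2.32-fold, limma adjusted p = 2.32e-08), from fibroblasts by 0.67 ± 0.11 and from cardiomyocytes by 1.03 ± 0.11. Its lower level in 2-week GFP- cells than in fibroblasts (-0.37 ± 0.11) and in cardiomyocytes (-0.36 ± 0.11) was not called without fibroblast replicate 1 (-0.23 and -0.22, limma adjusted p = 0.156 and 0.117). The first was also lost without GFP- replicate 1 (-0.29) and when fitted on these 2 groups alone (-0.37, limma adjusted p = 0.0795), and the second without cardiomyocyte replicate 2 (-0.29).

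For Col4a5, fibroblast arrays read 8.61, 8.37 and 8.32, 2-week iCMs 8.70, 8.77 and 8.66 and 4-week iCMs 8.82, 8.86 and 8.94. GFP- arrays read 7.86, 7.79 and 8.05 at 2 weeks and 7.88, 7.84 and 7.74 at 4 weeks, and cardiomyocytes 8.25, 8.23 and 8.29. All 6 iCM arrays lay above all other arrays, and all 6 GFP- arrays below all other arrays. The iCMs exceeded GFP- cells by 0.81 ± 0.09 at 2 weeks and 1.05 ± 0.09 at 4 weeks (2.07-fold, limma adjusted p = 9.02e-09). They exceeded fibroblasts by 0.28 ± 0.09 and 0.44 ± 0.09, the 2-week value missing the threshold without iCM replicate 2, fibroblast replicate 2 or fibroblast replicate 3 (0.22 to 0.25, limma adjusted p = 0.0742 to 0.113), or when fitted on these 2 groups alone (0.28, limma adjusted p = 0.0552). GFP- cells were lower than fibroblasts by 0.53 ± 0.09 and 0.61 ± 0.09.

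The remaining type IV chains were below the 2-fold limit and are described to complete the class. Col4a1 and Col4a2, the chains of the ubiquitous network, have start sites 21 bases apart on opposite strands. Col4a1 averaged 9.14 ± 0.20 (SD, n = 3) in fibroblasts, 9.06 ± 0.02 and 8.80 ± 0.02 in 2-week and 4-week iCMs, 8.26 ± 0.08 and 8.33 ± 0.14 in GFP- cells and 8.54 ± 0.03 in cardiomyocytes. Col4a2 averaged 8.86 ± 0.18 in fibroblasts, 9.03 ± 0.21 and 8.58 ± 0.06 in iCMs, 8.11 ± 0.13 and 8.08 ± 0.06 in GFP- cells and 8.49 ± 0.05 in cardiomyocytes. Both were called lower than in fibroblasts in GFP- cells and cardiomyocytes and neither in 2-week iCMs, and in 4-week iCMs Col4a1 alone was called lower. The iCMs exceeded GFP- cells by 0.80 ± 0.09 and 0.46 ± 0.09 for Col4a1 and by 0.92 ± 0.11 and 0.50 ± 0.11 for Col4a2, and the pair differed from each other in these changes by -0.12 ± 0.14 and -0.04 ± 0.06. Col4a3 and Col4a4, neighbouring genes whose chains are known from glomerular and lung basement membrane, were higher in iCMs than in fibroblasts at both times. Col4a3 differed by 0.34 ± 0.08 and 0.40 ± 0.08, and Col4a4 by 0.48 ± 0.09 and 0.47 ± 0.09. In GFP- cells neither was called against fibroblasts (-0.04 and -0.03 for Col4a3, 0.22 and 0.10 for Col4a4). Group means ran from 7.45 to 7.89 for Col4a3 and from 7.195 to 7.67 for Col4a4. They lay within the range of the chains called in no comparison (6.497 to 8.83), as did the group means of Col4a6 (7.10 to 8.31). Whether Col4a3, Col4a4 and Col4a6 were expressed was not tested.

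**Figure D4:**
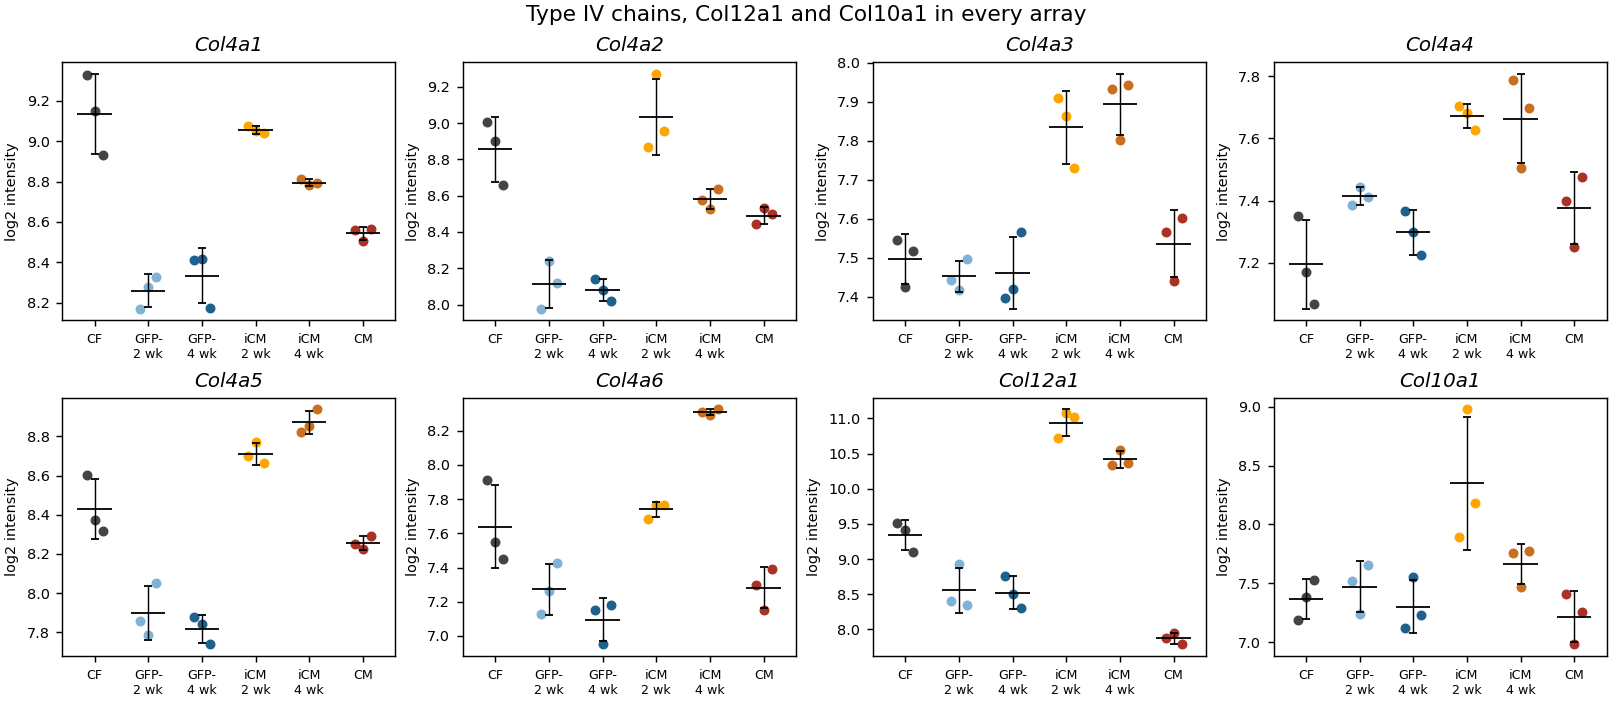
Log2 intensity of the 6 type IV chains, Col12a1 and Col10a1 in each of 18 arrays (points), with the group mean (line) and SD (bar), n = 3 per group; the scale differs by panel. For every type IV chain and Col12a1 the iCM arrays lie above the GFP- arrays of the same week, and Col4a6 is highest in 4-week iCMs, near 8.31.

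Type VI collagen forms beaded microfilaments close to the cell surface. Of its 6 chains, Col6a1, Col6a2, Col6a3 and Col6a6 were lower in iCMs than in cardiomyocytes at both times, by 0.31 to 0.84 log2, and Col6a4 and Col6a5 were called nowhere. Against fibroblasts Col6a1 was lower in iCMs and GFP- cells at both times: -0.98 ± 0.15 and -0.91 ± 0.15 in iCMs and -0.81 ± 0.15 and -0.79 ± 0.15 in GFP- cells. Its partner Col6a2, an adjacent gene, fell less (-0.34 in 2-week and in 4-week iCMs), and the changes of the 2 chains differed by -0.64 ± 0.04 and -0.58 ± 0.17. The GFP- cells shared this, with differences between the chains of -0.62 ± 0.03 at 2 weeks and -0.46 ± 0.03 at 4 weeks. In cardiomyocytes Col6a1 was at -0.15 and Col6a2 at 0.15 from fibroblasts, neither called. Col6a3 was lower in 4-week iCMs (-0.64 ± 0.12) and in GFP- cells (-0.68 ± 0.12 and -0.85 ± 0.12), and Col6a6 was higher in cardiomyocytes (0.43 ± 0.09). Col15a1, the multiplexin of muscle and capillary basement membranes, was higher in cardiomyocytes than in fibroblasts (0.37 ± 0.13) and lower in iCMs than in cardiomyocytes (-0.64 ± 0.13 and -0.60 ± 0.13). Col28a1 was lower in GFP- cells than in fibroblasts (-0.42 ± 0.11 and -0.41 ± 0.11) and near the fibroblast level in iCMs (0.11 and 0.00). These chains of less than 2-fold change were chosen after their values were seen.

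The other 19 chains were called in no comparison. They were 4 fibrillar chains (Col2a1, Col5a3, Col11a2 and Col27a1), Col6a4, Col6a5, 5 FACIT chains, Col8a2, Col18a1, all 4 transmembrane chains, Col7a1 and Col26a1. Their group means lay between 6.497 and 8.83 log2 and the highest and lowest group of a chain differed by 0.09 to 0.33. Among them are Col2a1, the collagen of cartilage, and Col17a1, a chain of epithelial hemidesmosomes.

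Between iCMs and GFP- cells of the same week 12 chains were higher and 0 lower at 2 weeks (16.2% and 18.4% of all genes) and 9 were higher and 2 lower at 4 weeks (17.2% and 17.1%). Besides the 6 type IV chains and Col12a1, the 2-week list held Col1a1, Col5a2, Col6a3, Col10a1 and Col28a1, and the 4-week list Col6a6 and Col28a1. The 2 lower chains were Col3a1 and Col8a1. At 2 weeks 0 chains were lower at an unadjusted p under 0.05, and array weights in limma called 8 lower beside 12 higher (48.6% of all genes called) and, at 4 weeks, 4 lower and 14 higher (44.9%). From 2 to 4 weeks, 7 chains fell and 1 rose in iCMs (7.24% and 4.29% of all genes). They were Col1a1, Col1a2, Col5a2, Col4a2, Col6a3, Col12a1 and Col10a1 against Col4a6, and without replicate 2 of the 2-week iCMs the number called was 4. In GFP- cells 2 fell, Col1a1 and Col1a2, and 0 rose (10.2% and 7.16%, with 0 rising in limma at an unadjusted p under 0.05). The number called was 6 once GFP- replicate 2 of week 2 was left out, and with array weights 2 of 9 rose. At least 2-fold change was called for 1 chain between iCMs and GFP- cells at 2 weeks (9.03% of all genes) and 4 at 4 weeks (8.55%), and for 0 over time in iCMs (0.507%), over time in GFP- cells (1.55%) or in the interaction (1.11%). The time changes of iCMs and GFP- cells differed for 2 chains (3.94% of all genes), Col4a6 (higher, 1.86%) and Col5a2 (lower, 2.08%). That count rose to 4 without replicate 2 of the 2-week GFP- cells and to 15 with array weights (21.0% of all genes called), and with array weights the time counts were 18 in iCMs (30.1%) and 9 in GFP- cells (30.6%). For 2-week iCMs against fibroblasts, array weights called 22 chains (45.8%).

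Against cardiomyocytes, chains were called in both directions in iCMs. At 2 weeks 13 chains were higher and 9 lower (22.7% and 19.4% of all genes), and at 4 weeks 8 were higher and 8 lower (19.0% and 16.1%), or 6 and 12 after cyclic loess and 8 and 12 after quantile normalization. In all 22 of 44 were called at 2 weeks (50.0%, all genes 42.1%) and 16 at 4 weeks (36.4%, all genes 35.1%), 4 and 3 of them with at least 2-fold change (10.5% and 8.33%). Higher were the type IV chains, Col12a1 and Col8a1 (1.38 ± 0.24 and 0.66 ± 0.24), the last not called at 4 weeks without iCM replicate 1 or 2 or cardiomyocyte replicate 2 or 3 (0.52 to 0.66) or after cyclic loess normalization (0.55). At 2 weeks Col1a1 (0.79 ± 0.12) and Col5a2 (1.03 ± 0.13) were higher as well. Lower at both times were Col1a2 (-0.40 ± 0.12 and -1.11 ± 0.12), Col3a1 (-0.65 ± 0.10 and -0.93 ± 0.10) and Col14a1 (-0.63 ± 0.17 and -0.91 ± 0.17), with the type VI chains and Col15a1 named above.

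Genes that make, process, cross-link and bind collagen were followed in 6 lists, chosen with earlier results of these data known. Beside their counts against fibroblasts stand 17.4% of all genes higher and 15.8% lower in 2-week iCMs and 14.3% and 15.2% in 4-week iCMs. For GFP- cells these shares were 13.8% and 8.93%, then 5.79% and 5.70%, and for cardiomyocytes 19.6% and 21.5%. Enzymes and chaperones that modify and fold the chains (18 of 19 measured) included 10 higher and 2 lower in 2-week iCMs than in GFP- cells (median 0.55), and 8 higher and 4 lower at 4 weeks (0.38). Against fibroblasts the counts were 4 higher and 4 lower in 2-week iCMs, and 2 and 8 in 4-week iCMs. GFP- cells had 2 higher and 9 lower at 2 weeks, and 0 and 9 at 4 weeks, and cardiomyocytes 0 and 12. The prolyl 3-hydroxylase P3h2, known to act on type IV collagen, was 4.18-fold higher in 2-week iCMs than in fibroblasts (2.06 ± 0.24, limma adjusted p = 7.92e-07) and 2.76-fold in 4-week iCMs. P3h4, part of a lysyl hydroxylase complex, differed by 1.91 ± 0.13 and 1.31 ± 0.13. P4ha3, a prolyl 4-hydroxylase subunit, was lower in iCMs (-1.67 ± 0.23 and -1.83 ± 0.23). Plod2, the lysyl hydroxylase of telopeptides, was lower in GFP- cells (-2.04 ± 0.19 and -1.86 ± 0.19), and P4ha1 was lower in cardiomyocytes by 2.74 ± 0.11 (6.68-fold).

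Of 8 genes for secretion and control of synthesis, 3 were higher and 1 lower in 2-week iCMs than in fibroblasts, 1 and 2 in 4-week iCMs, and 0 and 3 or 5 in GFP- cells, with medians of 0.08 and -0.04 in iCMs and -0.18 and -0.31 in GFP- cells. Klhl12, an adaptor that enlarges the vesicles carrying procollagen, differed by 0.81 ± 0.11 and 0.62 ± 0.11 in iCMs, and Tram2, a partner of type I collagen synthesis, by -0.99 ± 0.12 and -1.01 ± 0.12. In cardiomyocytes Klhl12 differed by 0.56 ± 0.11 and Tram2 by -1.04 ± 0.12, and Tram2 was lower in GFP- cells too (-0.53 ± 0.12 and -0.49 ± 0.12). Creb3l1 differed from fibroblasts by 0.55 ± 0.11 and 0.06 ± 0.11 in iCMs, -0.82 ± 0.11 and -0.58 ± 0.11 in GFP- cells and -0.92 ± 0.11 in cardiomyocytes. The iCMs exceeded GFP- cells in Creb3l1 by 1.36 ± 0.11 and 0.64 ± 0.11, and its time changes differed by -0.72 ± 0.15 (limma interaction, adjusted p = 0.00806). Of 7 measured procollagen processing genes (8 listed), Pcolce and Pcolce2 changed in opposite directions in iCMs and were both lower than in fibroblasts elsewhere. Pcolce, which enhances cleavage of the C-terminal propeptide, differed from fibroblasts by 1.48 ± 0.12 and 1.27 ± 0.12 in iCMs (limma adjusted p = 8.68e-09 and 7.00e-08) and by -0.92 ± 0.12 and -0.99 ± 0.12 in GFP- cells and -0.46 ± 0.12 in cardiomyocytes. Pcolce2, its homologue, was lower in iCMs (-2.61 ± 0.16 and -2.58 ± 0.16), in GFP- cells (-2.41 ± 0.16 and -1.09 ± 0.16) and in cardiomyocytes (-2.13 ± 0.16). Bmp1, the propeptide protease, was higher in iCMs than in GFP- cells (1.34 ± 0.11 and 0.96 ± 0.11). In the whole list 2 were higher and 1 lower in 2-week iCMs than in fibroblasts, and 1 and 1 in 4-week iCMs (medians 0.08 and 0.05).

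Of the cross-linking genes (6 of 7 measured), against fibroblasts, 4 were lower and 1 higher in iCMs at either time, 5 and 3 were lower in GFP- cells at 2 and 4 weeks, and 4 were lower and 2 higher in cardiomyocytes. Medians were -0.41 and -0.59 in iCMs, -0.59 and -0.48 in GFP- cells and -0.60 in cardiomyocytes. Lox, the lysyl oxidase of fibrils, differed by -1.23 ± 0.29 and -2.95 ± 0.29 in iCMs, -1.74 ± 0.29 and -1.69 ± 0.29 in GFP- cells and -3.51 ± 0.29 in cardiomyocytes. It fell by 1.71 ± 0.29 in iCMs from 2 to 4 weeks. Pxdn, peroxidasin, which joins type IV collagen molecules, was the gene higher in iCMs (1.36 ± 0.19 and 1.27 ± 0.19). Its iCM level exceeded that of GFP- cells by 2.11 ± 0.19 and 1.56 ± 0.19 (limma adjusted p = 1.78e-08 and 1.23e-06). Cardiomyocytes were also higher than fibroblasts in Pxdn (1.20 ± 0.19), and iCMs were not called against cardiomyocytes (0.16 ± 0.19 and 0.06 ± 0.19). Of 9 collagen receptors, 3 were higher and 4 lower in 2-week iCMs than in fibroblasts, 2 and 5 in 4-week iCMs, and 0 and 6 or 5 in GFP- cells (medians -0.26 and -0.42, then -0.69 and -0.50). Itga1 was higher in 2-week iCMs (0.81 ± 0.16) and cardiomyocytes (0.89 ± 0.16), lower in GFP- cells (-1.27 ± 0.16 and -0.85 ± 0.16) and not called in 4-week iCMs (0.33 ± 0.16). The iCMs exceeded GFP- cells in Itga1 by 2.08 ± 0.16 and 1.18 ± 0.16. Itga10 was higher in iCMs (0.94 ± 0.11 and 0.82 ± 0.11). Itga11, a fibroblast receptor of fibrillar collagen, and the endocytic receptor Mrc2 were lower, Itga11 by 1.13 ± 0.10 and 1.32 ± 0.10 and Mrc2 by 1.20 ± 0.10 and 1.37 ± 0.10. Both were lower in GFP- cells too (Itga11 -1.37 and -1.47, Mrc2 -1.12 and -1.26) and in cardiomyocytes (-1.30 and -1.10). Ddr2, a receptor tyrosine kinase for fibrillar collagen, was lower than in fibroblasts in every other group. It differed by -1.83 ± 0.16 and -2.13 ± 0.16 in GFP- cells, -0.44 ± 0.16 and -0.98 ± 0.16 in iCMs and -1.76 ± 0.16 in cardiomyocytes. The leukocyte receptor Lair1 was lowest in cardiomyocytes (-3.67 ± 0.17) and was also lower than in fibroblasts in iCMs (-1.66 ± 0.17 and -0.95 ± 0.17). In GFP- cells Lair1 was not called against fibroblasts (-0.25 ± 0.17 and 0.16 ± 0.17).

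The other proteins of the basement membrane (14 of 15 measured) were 8 higher and 1 lower in iCMs than in GFP- cells at 2 weeks and 8 and 2 at 4 weeks, with medians of 0.56 and 0.59. Against fibroblasts 7 were higher and 2 lower in 2-week iCMs, and 5 and 2 in 4-week iCMs, whereas GFP- cells had 2 higher and 4 lower, then 1 and 5. Nid2, nidogen-2, a linker between laminin and type IV collagen, was 19.4-fold higher in 2-week iCMs than in fibroblasts (4.27 ± 0.13, limma adjusted p = 3.11e-15) and 11.7-fold in 4-week iCMs (3.55 ± 0.13). Its homologue Nid1 was lower (-0.83 ± 0.17 and -2.06 ± 0.17). Lama2, the laminin alpha chain of muscle, was higher in iCMs (1.55 ± 0.26 and 1.69 ± 0.26) and in cardiomyocytes (2.07 ± 0.26), and lower in GFP- cells (-1.63 ± 0.26 and -1.99 ± 0.26). The iCMs exceeded GFP- cells in Lama2 by 3.18 ± 0.26 and 3.68 ± 0.26. Counts of called genes in these lists stand beside 34.5% and 34.2% of all genes called between iCMs and GFP- cells at 2 and 4 weeks, where the medians of all genes were -0.0173 and 0.0463. Against fibroblasts the medians of all genes were -0.0123 to 0.051.

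**Figure D5:**
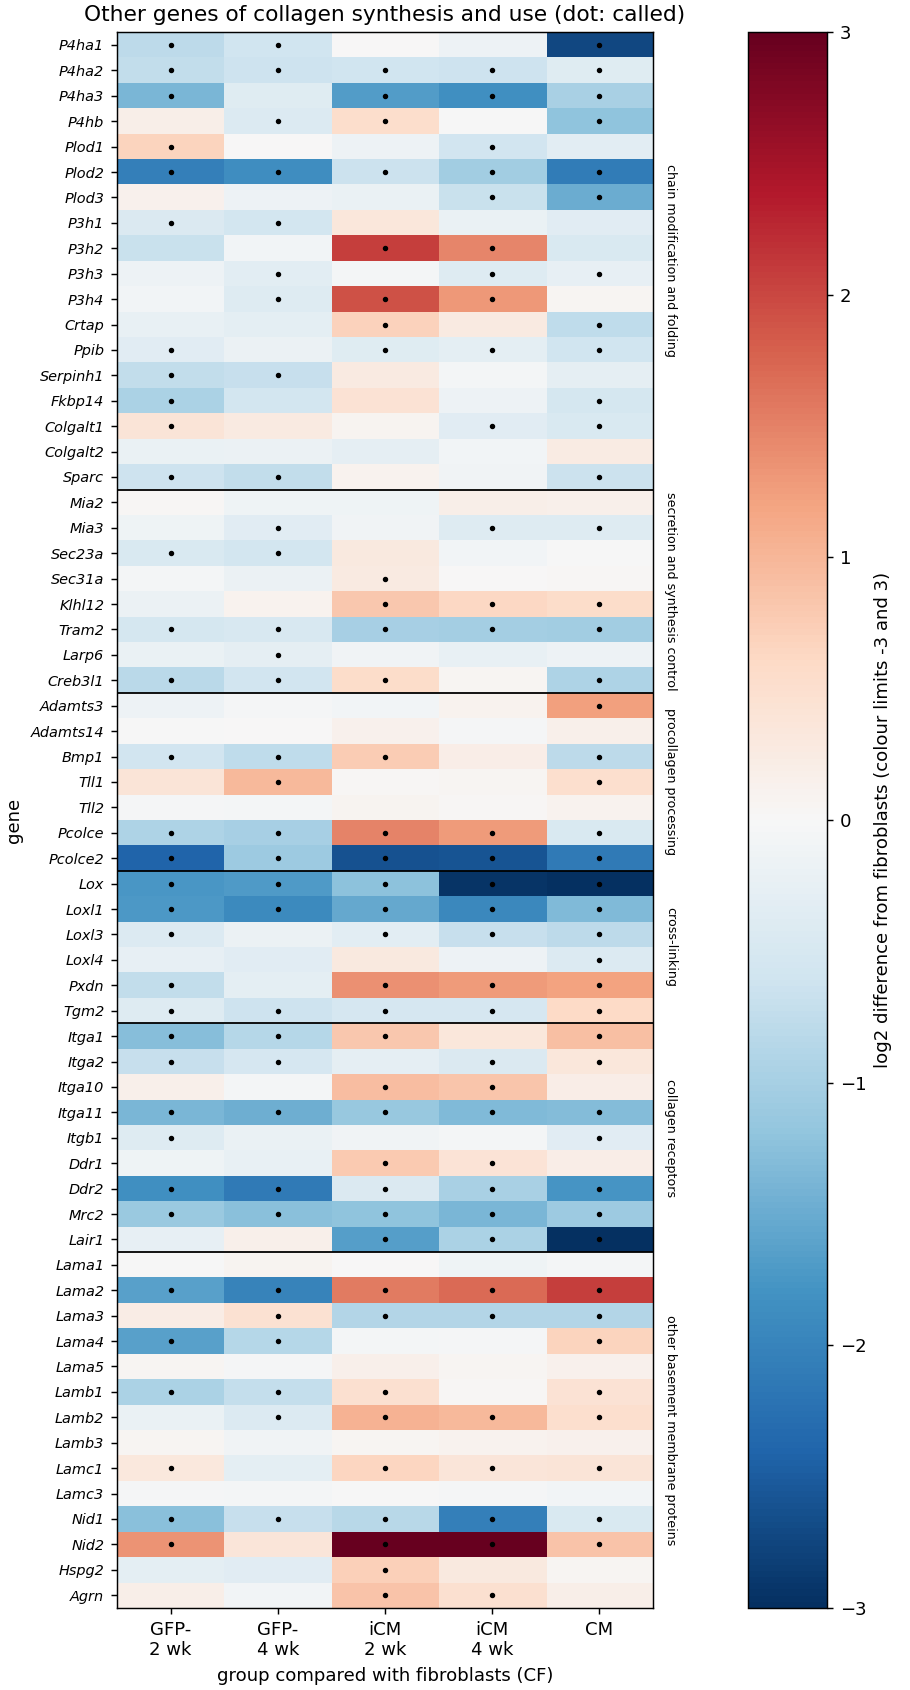
Log2 difference from fibroblasts of the measured genes of 6 lists (names at the right), in the 5 other groups; blue is lower, red higher, and a dot marks a call by limma. Nid2, Lama2, P3h2, P3h4, Pcolce and Pxdn are red in both iCM columns, and Lox, Loxl1, Pcolce2, Itga11 and Mrc2 are blue in all 5.

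RefSeq promoter windows were found for 35 of the 44 chains (38 windows, since some genes had several starts). In the annotation 8 pairs of the 44 chains lie next to each other. In the 150 bases before each start, TATAAA or its reverse complement TTTATA was present in 4 of 38 windows (10.5%, beside 7.57% of 32851 windows of all genes). CCAAT or ATTGG was present in 8 (21.1%, beside 24.5%), and GGGCGG or CCGCCC in 19 (50.0%, beside 28.6%). These shares describe letters in these windows and were not tested.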

How the data were processed

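RNA from 18 arrays (6 groups of 3) was isolated with PicoPure and labelled with MessageAmp II-biotin, per the labels' protocols. The values are the log2 intensities deposited by the authors in the series' value table, made by RMA per the submitters' processing notes. The RMA software and version are not given in the sources used here. RMA makes the arrays' distributions alike, so differences are relative to all genes. All 18 sample columns were mapped by the labels. Of 28682 probe sets, 21755 named 1 gene, 1592 several and 5335 none in the platform annotation, and 997 genes had several probe sets. The probe set with the highest mean was kept, giving 19912 genes.

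From these values, limma 3.58.1 in R 4.3.3 fitted 1 mean per group over all 18 arrays (lmFit, eBayes). Of 12 comparisons, 11 were between pairs of groups and 1 was the interaction of cell type with time. Benjamini-Hochberg adjustment ran over all genes within a comparison, with calls at adjusted p under 0.05, and the script was tested on simulated data. Values in every array are given for chains called with at least 2-fold change in any comparison. Other chains are given by counts, and those singled out were chosen after their values were seen. In pathway lists up to 4 called genes of largest difference per comparison were named. The members and lists were chosen with earlier results of these data known. Alternatives were quantile and cyclic loess normalization, array weights, an intensity trend, a filter on low signal, the mean of probe sets, a replicate block, only the groups compared, a 2-fold limit, other class definitions and leaving out each array. The number of arrays limits the precision.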

Additional observations from a re-analysis of the deposited data

Results flagged for a closer look

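The change from 2 to 4 weeks differed between iCMs and GFP- cells for a pair of chains by the interaction term in limma. It was 0.75 log2 higher in iCMs for Col4a6 and -0.98 for Col5a2. In addition, some chains lay above fibroblasts in iCMs and below them in GFP- cells of the same week, with both calls and the direct difference past the threshold. The difference between iCMs and GFP- cells was 2.38 log2 at 2 weeks and 1.89 at 4 weeks for Col12a1. For Col4a5 it was 0.81 at 2 weeks and 1.05 at 4 weeks, and for Col4a6 it was 1.21 at 4 weeks. These pairs of comparisons share the fibroblast arrays.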

How the results depend on the processing

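For the 10 chains with 2-fold changes there were 120 pairs of chain and comparison, 82 of them called. Of their 1740 alternative values, 1679 kept direction and side of the threshold (called or not called), 23 lost a call, 38 gained one and 0 reversed. The cause of the shifts below was not tested. Array weights raised the counts of called chains by over 1.5 times in 6 comparisons: 22 for 2-week iCMs against fibroblasts, 20 and 18 for iCMs against GFP- cells at 2 and 4 weeks, 18 and 9 for the time change in iCMs and GFP- cells, and 15 for the interaction. Requiring a 2-fold change left, against fibroblasts, 6 chains in cardiomyocytes, 5 and 7 in 2-week and 4-week iCMs, and 6 and 6 in GFP- cells. It left 1 and 4 between iCMs and GFP- cells, 4 and 3 between iCMs and cardiomyocytes, and 0 for each time change and the interaction.

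The fibrillar median moved to 0.0462 (cardiomyocytes against fibroblasts, quantile), -0.20 (2-week iCMs, array weights) and -0.29 (2-week GFP- cells, cyclic loess). Limited to types I, II, III, V and XI it was -0.58 in cardiomyocytes, -0.57 and -0.70 in 2-week and 4-week iCMs, -0.46 and -0.46 in GFP- cells, and -0.0367 for iCMs against GFP- cells at 4 weeks. With types VII, XV and XVIII added, the basement membrane median against fibroblasts was 0.0407 in cardiomyocytes, 0.0137 in 4-week iCMs, and -0.16 and -0.14 in GFP- cells, and 0.38 and 0.43 for iCMs against GFP- cells. The latter at 4 weeks was 0.54 with quantile and 0.52 with cyclic loess normalization for type IV alone.

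Leaving out each array gave 2 to 4 chains for the interaction, 2 to 6 for the time change in GFP- cells (highest, in both, without GFP- 2-week replicate 2) and 4 to 9 for that in iCMs (lowest without iCM 2-week replicate 2). The fibrillar median of 2-week iCMs against fibroblasts ran from -0.21 to -0.0532, and the type IV median of iCMs against GFP- cells at 4 weeks from 0.47 to 0.52. Pairing of arrays by replicate number was not shown: same-number correlations ran from -0.30 to 0.45 and exceeded 0.1 throughout in 0 comparisons. Of 18 arrays, 8 correlated best with their own number. The values for 4-week against 2-week iCMs were 0.454, 0.345 and 0.084, and 3 arrays a group are too few to settle whether some groups were paired. With the replicate block 14 and 17 chains were called in 2-week and 4-week iCMs against fibroblasts, and 12 and 11 in iCMs against GFP- cells. No chain's group mean was under the background limit.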
